A study of Mus musculus with 12 samples.

Results

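The miR-297, miR-466, miR-467 and miR-669 miRNAs are a rodent family of short, repeat-rich RNAs, and their precursors were chosen by name, as every deposited precursor called mir-297, mir-466, mir-467 or mir-669 with any letter or copy number. This gave 79 of the 1532 precursors with reads, 6 of them named mir-297, 29 mir-466, 17 mir-467 and 27 mir-669. The other 918 annotated precursors and 535 predicted by the submitters served for comparison. Small RNA was sequenced from 12 mouse samples in 2 groups of 6, all labelled with the db/db genotype. Their strain labels run from C57BL/KsJ-db/db to C68BL/KsJ-db/db, the number rising by 1 from sample to sample, and that number was not used. The db mutation disables the leptin receptor, which makes these mice obese and diabetic. The model group carried only that label, the Keluoxin group had been given the agent Keluoxin, and the labels state neither dose, time nor age. No mice without the db/db genotype were analysed here. The tissue is labelled retinal, although the RNA extraction is described for a pellet of exosomes. Nothing says that each sample is a different animal, and the tests below therefore describe the scatter among these samples, part of which may be technical.

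A miRNA precursor folds into a hairpin from which Dicer releases a short duplex, with 1 strand from the 5′ side (5p) and 1 from the 3′ side (3p). The strand that is kept guides an Argonaute protein to messenger RNAs, mainly through its seed, here bases 2 to 8. Most of this family lies in a single intron cluster of Sfmbt2, a Polycomb-group gene that is imprinted in the mouse placenta, and the cluster is known from embryonic stem cells and trophoblast. Its members arose by repeated duplication and are rich in TG and CA dinucleotides.

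The most frequent reads of the 6 seed groups with the most reads are shown first, because copies of these precursors give identical reads and the seed separates them better than the names do. The capitals mark the seed, and T stands for U as in the deposited reads.
miR-669a-3p and miR-669o-3p: aCATAACAtacacacacacgt
miR-467a-5p and miR-467b-5p: tAAGTGCCtgcatgtatatgc
miR-669c-5p: aTAGTTGTgtgtggatgtgtgt
miR-466d-3p: tATACATAcacgcacacatagt
miR-297a-3p, miR-297b-3p and miR-297c-3p: aTATACATacacacatacccat
miR-467e-5p: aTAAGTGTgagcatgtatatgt
The first of these was read 269 times over the 12 libraries and the last 119 times. The miR-466d-3p read differed from the precursor by a base, and the other 5 matched theirs exactly. The seeds of the miR-466d-3p and miR-297 reads are the same letters shifted by 1 base, so a start shifted by 1 base moves a read from one group to the other.

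The hairpins of 3 precursors show where such reads lie, with the most frequent exact read of each side in capitals. mir-466d and mir-669a-1 are the precursors of their names with the most matching reads. mir-466q is the precursor on which the arm that differed between the groups was counted.
mir-466d: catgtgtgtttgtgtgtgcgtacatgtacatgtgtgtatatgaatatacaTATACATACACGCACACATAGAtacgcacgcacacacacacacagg
mir-669a-1: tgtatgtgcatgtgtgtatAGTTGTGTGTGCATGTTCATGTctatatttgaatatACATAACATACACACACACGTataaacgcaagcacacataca
mir-466q: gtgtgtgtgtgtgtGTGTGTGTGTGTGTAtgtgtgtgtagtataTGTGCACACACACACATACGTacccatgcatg
The 5′ side of mir-466q is a run of TG repeats. The hairpin of mir-466d had an exact read from the 3p side to mark, and those of mir-669a-1 and mir-466q from both sides. On GRCm38, mir-466d lies at chr2:10511967-10512062, mir-669a-1 at chr2:10476853-10476949 and mir-466q at chr3:28419943-28420018, all on the plus strand.

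All 79 precursors matched GENCODE M21 genes by sequence, and 70 of them lay in an intron of Sfmbt2 on chromosome 2, on the strand of the gene. They were packed into 51.6 kb of a gene of 225 kb, beginning 96.2 kb from its start, with a median distance of 0.296 kb between neighbouring starts. The other 9 were spread over the genome. mir-466q lay in an intron of Tnik on chromosome 3. No host gene was found for mir-297a-1 (chromosome 7), mir-466f-4 and mir-466i (13), mir-466j (10), mir-466k (3), mir-467f (11), mir-467g (5) and mir-467h (9). Only protein-coding and long noncoding genes on the strand of the precursor were searched, so a gene on the other strand may still cover them. The 79 precursors had 60 distinct sequences, and 26 of them shared their whole sequence with another. A tag, that is a distinct read sequence of a library, matched up to 15 family precursors. Of the family reads, 41.1% matched a single precursor and 46.0% matched at least 10. Therefore each read was counted once, and no level is given for a single copy.

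**Figure D1:**
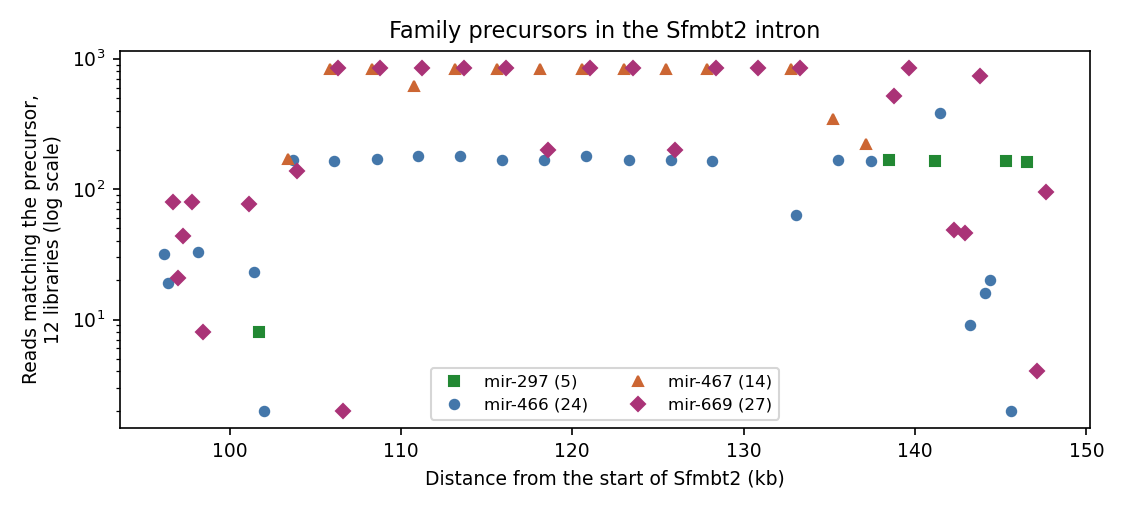
Reads of all 12 libraries that matched each family precursor (vertical axis, log scale) against the distance of the precursor from the start of Sfmbt2 in kb (horizontal axis), for the 70 precursors in Sfmbt2, with the number of precursors of each name in the legend. A read that matches several copies is plotted at each of them, so the mir-467 points near the top largely repeat one set of reads and the mir-669 points, such as mir-669a-1 at 850 matching reads, another.

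The family was a small part of these libraries. Of 62878432 counted reads (1933375 to 7892147 a library), 4011 were family reads, a share of 0.00638%, in 388 distinct sequences. The deposited tables list sequences with at least 2 reads, so a value of 0 does not show absence. Reads on the Sfmbt2 precursors alone numbered 3618, or 90.2%, and reads on the other precursors alone 361, or 9.0%. Sharing reads of several arms equally, the most abundant family arm, miR-669c-5p, was exceeded by 371 of 1407 annotated arms in mean CPM. The libraries carried the retinal miRNAs in quantity: the summed level of 6 markers (miR-182-5p, miR-183-5p, miR-96-5p, miR-124-3p, miR-9-5p, miR-204-5p), all detected, was 467381 to 547443 CPM in model and 276586 to 498454 in Keluoxin.

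The level of the whole family did not differ between the groups beyond their spread. In RPM (reads divided by counted reads and multiplied by 1000000), the 6 model libraries had a lowest value of 52.6, a median of 59.5 and a highest of 63.5, and the 6 Keluoxin libraries 37.2, 68.5 and 94.7. The Keluoxin libraries lay both above and below all model libraries. The means were 58.9 ± 3.98 and 66.2 ± 22.7 (SD, n = 6 each, exact two-sided permutation test, p = 0.461). With the family as 1 feature among 793 (edgeR quasi-likelihood test, TMM scaling), the log2 fold change of Keluoxin over model was -0.05 (SE 0.17, adjusted p = 0.836), a value above 0 under scaling to total reads (0.17). In that fit 16.9% of all features passed.

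By name, mir-669 precursors had the most reads (1721), followed by mir-467 (1222), mir-466 (965) and mir-297 (180), a read that matches more than 1 name being counted under each. The levels of mir-669 in the 6 libraries of each group were 25.0 ± 3.30 RPM (SD) in model and 28.8 ± 11.0 RPM in Keluoxin. Those of mir-467 were 19.8 ± 1.99 and 17.4 ± 5.56 RPM. Those of mir-466 were 11.9 ± 1.80 and 19.3 ± 7.70 RPM, with 9.69 to 14.5 in model and 11.3 to 31.5 in Keluoxin. Those of mir-297 were 2.84 ± 0.827 and 2.51 ± 1.69 RPM. The 2 groups overlapped for each of the 4 names, and these values were not tested.

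Split by place, reads matching the scattered precursors were more frequent in Keluoxin, and those of the Sfmbt2 cluster did not differ beyond their spread. Reads on the Sfmbt2 precursors alone stood at 51.0, 57.6 and 59.4 RPM in model (lowest, median, highest) and 26.4, 59.6 and 84.6 in Keluoxin. The model libraries lay inside the range of the Keluoxin libraries, with means of 56.5 ± 3.23 and 54.7 ± 20.8 (SD, n = 6 each, exact permutation test, p = 0.926). Reads on the 9 other precursors alone stood at 0.507, 2.06 and 4.11 RPM in model and 6.10, 9.86 and 21.5 in Keluoxin. Here the groups did not overlap, and Keluoxin was higher by 8.85 RPM on means of 2.03 ± 1.25 and 10.9 ± 5.52 (exact two-sided permutation test, n = 6 each, p = 0.00216, the smallest this design can give, adjusted over the 2 places p = 0.00433). These reads are not specific to the 9 precursors: 42 of 66 in model and 165 of 295 in Keluoxin occur whole in a GENCODE transcript that is no miRNA, and another 5 and 91 hold a stretch of miR-466q-3p reads described further on. How many came from the precursors was not tested. This split was chosen after the values were seen. Restricted to reads of 18 to 26 nt, the difference was 1.81 RPM and did not pass (adjusted p = 0.0563).

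**Figure D2:**
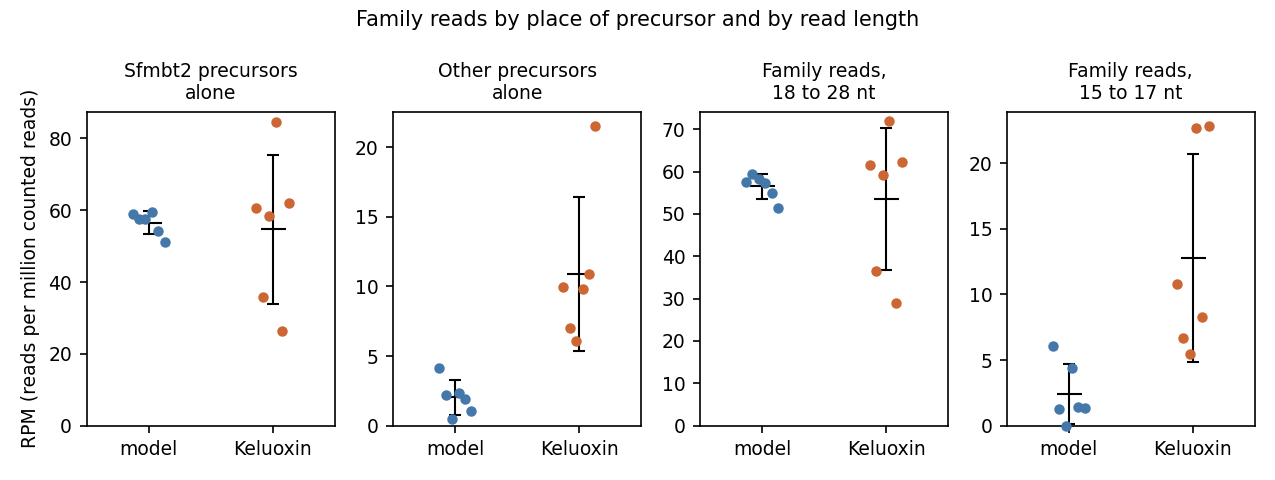
Family reads in RPM (vertical axes, each with its own range) in the 6 model and 6 Keluoxin libraries, split by place of the precursor (left pair of panels) and by read length (right pair), with 1 point per library and black bars for mean and SD. The groups do not overlap for the other precursors alone, and overlap for the Sfmbt2 precursors and for both classes of length.

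Very short family reads were more frequent in Keluoxin. Family reads of 15 to 17 nt stood at 0, 1.36 and 6.04 RPM in model (lowest, median, highest) and 5.44, 9.54 and 22.8 in Keluoxin. The groups overlapped by a single model library, replicate 1, which was above the lowest Keluoxin library. The means were 2.41 ± 2.30 and 12.8 ± 7.93 (SD, n = 6 each, exact permutation test, adjusted over the 2 classes of length p = 0.00866). Family reads of 18 to 28 nt, the class that holds mature miRNAs, did not pass, at 56.5 ± 2.93 and 53.4 ± 16.8 RPM (exact permutation test, p = 0.649). Of the pooled reads on the Sfmbt2 precursors alone, 2.23% in model and 8.71% in Keluoxin were of 15 to 17 nt. Of those 44 and 143 reads, 8 and 71 were of miR-669h-5p, 61 of them in Keluoxin replicate 4, and without this arm the shares were 1.83% and 4.59%. Without Keluoxin replicate 4, family reads of 15 to 17 nt were still higher in Keluoxin by 8.38 RPM (exact permutation test, adjusted p = 0.00866). On the other precursors alone these shares were 43.9% and 74.6%. This split by length, too, was chosen after the values were seen.

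**Figure D3:**
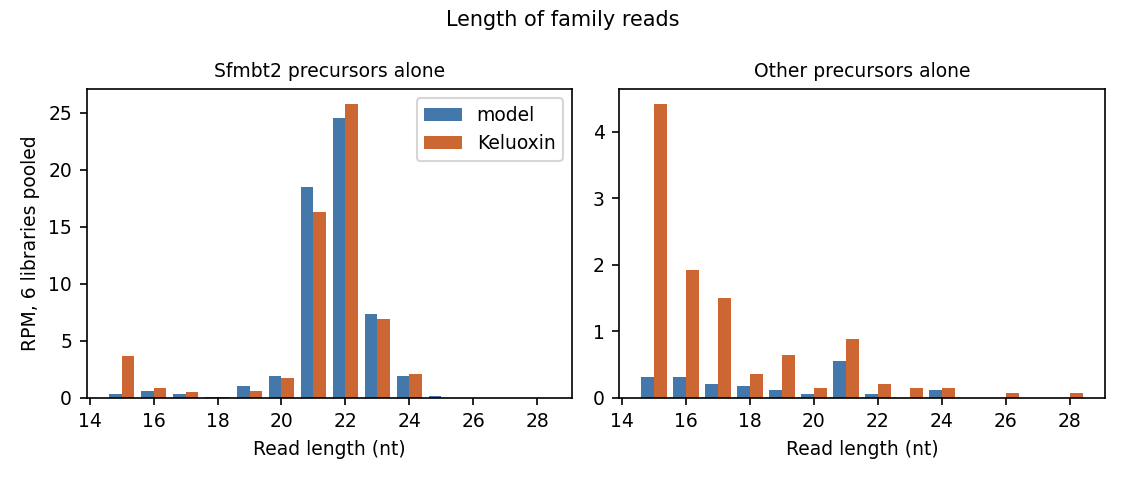
Length of family reads in nt (horizontal axes) against RPM over the 6 pooled libraries of each group (vertical axes, each with its own range), for reads on the Sfmbt2 precursors alone (left) and on the other precursors alone (right). The left profile peaks at 22 nt in both groups, and the right profile is highest at 15 nt in Keluoxin and at 21 nt in model.

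The make-up of the family reads differed too, in 2 of 5 measures. The share of family reads of 21 to 23 nt was 81.4, 85.8 and 90.2% in model (lowest, median, highest) and 62.2, 72.1 and 85.7% in Keluoxin. The means were 86.3% ± 3.28 and 72.6% ± 8.04 (SD, n = 6 each, exact permutation test, adjusted over 5 measures p = 0.0216). Among reads of 18 to 26 nt alone, the difference was -0.70 percentage points and did not pass (adjusted p = 0.606). The share of family reads without a differing base was 68.7% ± 3.87 in model and 59.9% ± 3.95 in Keluoxin (exact permutation test, n = 6 each, adjusted p = 0.0216). Of the libraries' other reads, 59.3% ± 1.68 in model and 51.9% ± 2.51 in Keluoxin had no differing base, and whether the family differs from them was not tested. Reads of 15 to 17 nt made up 2.77% ± 0.853 of all other reads in model and 3.63% ± 1.07 in Keluoxin. Of the other reads that matched no predicted precursor, they made up 0.566% ± 0.186 in model and 0.583% ± 0.211 in Keluoxin. Whether the family differs from them in this was not tested either. The other 3 measures did not pass. The 5p side held 48.6% ± 3.11 and 55.2% ± 7.24 of the family reads (adjusted p = 0.0974 by the exact permutation test, n = 6 each). Reads that also matched a precursor outside the family made up 0.594% ± 0.934 and 2.00% ± 1.5 (adjusted p = 0.0974, same exact test). Reads starting with T made up 36.4% ± 3.63 and 35.5% ± 2.48 (p = 0.604, same exact test).

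In the fit of all arms, 10 of the 73 family arms passed the filter on low counts, among 802 arms tested, and 1 of these 10 passed the test, in a fit where 17.1% of all arms did (8.98% higher and 8.1% lower in Keluoxin). Passing the filter depended on the level, so these 10 do not stand for all members. The arm called was miR-466q-3p, higher in Keluoxin. The other 9 had log2 fold changes below 0, from -1.08 to -0.09, none of them passing, and with scaling to total reads miR-669a-3p, miR-669o-3p and miR-669c-5p were above 0 (0.11, 0.11 and 0.089). The median over the 10 was -0.32, beside 0.03 over all 802 arms and -0.13 over the 502 annotated ones, of which 60.6% were below 0. Many of the 10 share reads, so they are not independent.

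**Figure D4:**
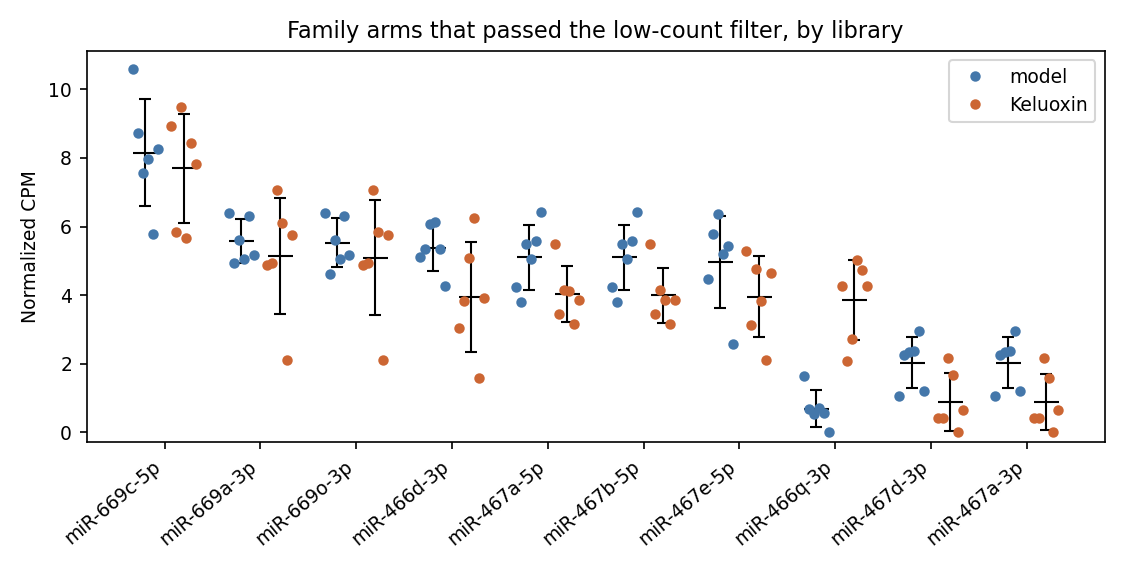
Normalized CPM (counts scaled as RPM, but over TMM-scaled library sizes, vertical axis) of the 10 family arms that passed the filter on low counts, in 6 model and 6 Keluoxin libraries, with 1 point per library and black bars for mean and SD. The groups overlap for 9 of the arms, and for miR-466q-3p every Keluoxin library is above every model library. miR-669a-3p and miR-669o-3p, miR-467a-5p and miR-467b-5p, and miR-467d-3p and miR-467a-3p are pairs with nearly the same reads.

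Of the arms from the Sfmbt2 cluster, miR-669c-5p came from a single precursor and had the highest mean CPM when shared reads were divided equally. By seed, more reads matched miR-669a-3p (702 with CATAACA) and miR-467a-5p (589 with AAGTGCC) than miR-669c-5p (487 with TAGTTGT). Its normalized CPM were 5.79, 8.12 and 10.6 in model (lowest, median, highest) and 5.67, 8.12 and 9.50 in Keluoxin. The 2 ranges nearly coincided, with a log2 fold change of -0.09 (SE 0.20, edgeR adjusted p = 0.777). miR-669a-3p, whose main read matches 12 precursors, followed at 4.95, 5.40 and 6.40 CPM in model and 2.11, 5.35 and 7.07 in Keluoxin (log2 fold change -0.10, edgeR adjusted p = 0.975). Its lowest library was Keluoxin replicate 5, the library with the fewest reads. miR-669o-3p had 0 reads of its own and the values of miR-669a-3p almost throughout.

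miR-467a-5p stood at 3.79, 5.28 and 6.41 CPM in model and 3.16, 3.98 and 5.48 in Keluoxin (log2 fold change -0.33, SE 0.20, edgeR adjusted p = 0.248), and miR-467b-5p shared its reads (log2 fold change -0.34, adjusted p = 0.233). miR-467e-5p stood at 2.57, 5.32 and 6.36 CPM in model and 2.11, 4.24 and 5.27 in Keluoxin (log2 fold change -0.31, edgeR adjusted p = 0.395). In all 3 arms the medians were lower in Keluoxin and the groups overlapped. miR-466d-3p stood at 4.28, 5.34 and 6.13 CPM in model and 1.58, 3.86 and 6.25 in Keluoxin (log2 fold change -0.41, SE 0.27, edgeR adjusted p = 0.271). The highest and the lowest value of this arm were both in Keluoxin.

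Among the 10 arms tested, miR-467a-3p and miR-467d-3p, which share their reads, had the lowest log2 fold changes. miR-467a-3p stood at 1.06, 2.30 and 2.96 CPM in model and 0, 0.534 and 2.15 in Keluoxin. The groups overlapped, 4 of the 6 Keluoxin libraries lay below every model library, and the log2 fold change of -1.08 did not pass (SE 0.51, edgeR adjusted p = 0.150). That of miR-467d-3p was -1.06 (SE 0.52, edgeR adjusted p = 0.161). The 5p arm of the same mir-467a hairpins is the miR-467a-5p above, with a log2 fold change of -0.33, and the difference between the 2 arms was not tested.

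miR-466q-3p was counted on mir-466q in the Tnik intron. Its normalized CPM were 0, 0.601 and 1.65 in model (lowest, median, highest) and 2.09, 4.27 and 5.01 in Keluoxin. Every Keluoxin library was above every model library. Groups that did not overlap, in either direction, were seen for 7.73% of all 802 arms. The means were 0.681 ± 0.537 and 3.85 ± 1.17 (SD, n = 6 each), and the log2 fold change was 2.45 (SE 0.46, edgeR adjusted p = 0.00734). The call rests on 139 reads, 22 in model and 117 in Keluoxin. Without Keluoxin replicate 3 or without replicate 4 the arm did not pass the filter on low counts and was not tested. With no filter it passed without either (log2 fold change 2.51, adjusted p = 0.0331, and 2.34, adjusted p = 0.0385).

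The reads counted as miR-466q-3p were of 2 kinds, shown because their counts by group were unlike. Capitals mark the seed of the RefSeq mature sequence (GRCm38.p6) and of the most frequent exact read.
RefSeq mature miR-466q: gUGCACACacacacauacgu
exact read: tGTGCACAcacacacatacgt
short read 1: gtgtagtatctgtgc
short read 2: tgtagtatctgtgca
short read 3: tgtgtagtatctgtg
short read 4: tgtgtagtatctgtgc
The exact read, with 28 of the 139 reads, began 1 base before the RefSeq sequence and ended with it, so its seed is shifted by that base. Reads of 18 nt or longer numbered 17 in model and 19 in Keluoxin. Reads of 15 to 17 nt numbered 5 in model, all in replicate 1, and 98 in Keluoxin, where each library had some (19, 10, 10, 33, 6 and 20 in replicates 1 to 6). All 103 of these short reads had 1 base that differed from the precursor. The 4 short reads shown, with 96 reads together, share the stretch tgtagtatctgtg, and their differing base was A10C, A9C, A11C and A11C in the order shown, with the base of the precursor first and positions counted from 1 at the 5′ end of the read. Short read 1, the most frequent with 45 reads, shared a stretch of 13 bases with 22 snRNA genes of GENCODE M21, among them Rnu2-10, a gene of the U2 spliceosomal RNA. That stretch is not the one common to the 4 short reads, since the longest match of short read 2 to such genes was 12 bases. Whether these reads came from mir-466q or from another RNA was not tested. With exact reads only, or with reads of 18 to 26 nt only, miR-466q-3p did not pass the filter and no family arm was called.

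**Figure D5:**
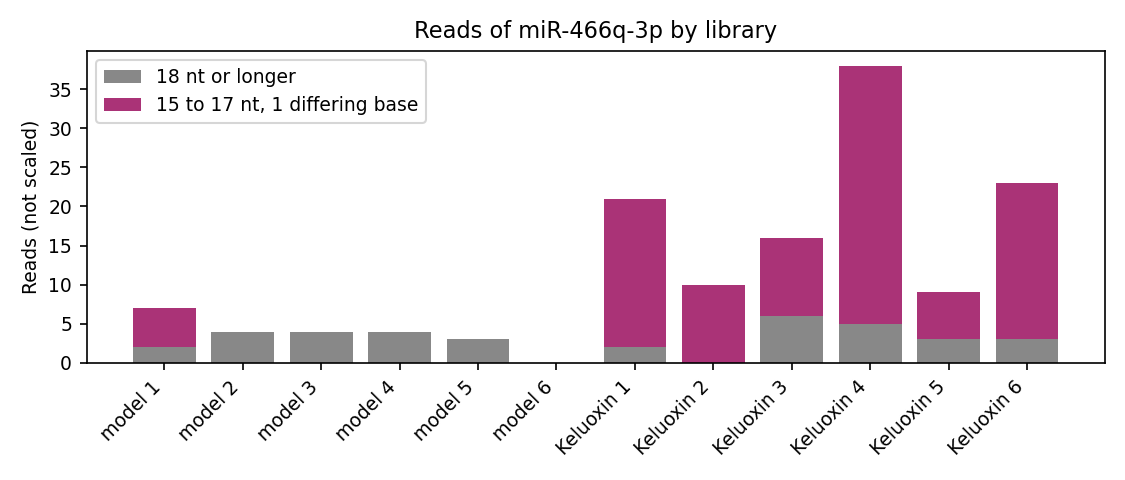
Reads counted as miR-466q-3p (vertical axis, not scaled to library size) in each of the 12 libraries (horizontal axis), split into reads of 18 nt or longer (grey) and reads of 15 to 17 nt, each with 1 differing base (purple). Long reads reach at most 6 in any library, and short reads are present in model replicate 1 and in all 6 Keluoxin libraries.

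The remaining arms among the 20 with the highest mean level did not pass the filter on low counts. Those of the Sfmbt2 cluster were miR-669a-5p (1.00 ± 0.569 CPM, mean and SD over the 6 model libraries, and 1.17 ± 0.419 over the 6 Keluoxin libraries), miR-669p-5p, which shares its reads, miR-669f-3p (1.15 ± 0.829 and 0.601 ± 0.531), miR-466f-3p (1.10 ± 0.724 and 0.674 ± 0.300) and miR-467c-5p (1.01 ± 0.455 and 0.684 ± 0.429). miR-297a-3p stood at 0.972 ± 0.334 and 0.691 ± 0.530 CPM, and miR-297b-3p and miR-297c-3p shared most of its reads. miR-466q-5p, the TG-repeat side of mir-466q, stood at 0.536 ± 0.295 and 1.54 ± 1.38 CPM. In each of these arms the groups overlapped. miR-669h-5p stood at 0.284 ± 0.354 and 1.71 ± 3.27 CPM, and 63 of its 81 reads were in Keluoxin replicate 4. Its main read, aggtctgtgatgccc, with 73 reads, begins before the deposited precursor, although it was counted as having no differing base. This read occurs whole in the transcript of Gm42418, a noncoding RNA gene outside the family. Keluoxin replicate 4 also had the highest family level of all libraries in RPM (94.7). In normalized CPM its family level was 72.7, just below Keluoxin replicate 6 at 72.9. Replicate 4 had the highest sum of 3 muscle markers (miR-1a-3p, miR-133a-3p, miR-206-3p, all detected), 1883 CPM beside 295 to 430 in model. Their part in the family level was not tested.

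Grouped by seed, which avoids dividing reads between copies, the family reads fell into 95 groups, 7 of which passed the filter among 799 features. None of the 7 passed the edgeR test, where 16.8% of all features did, 1 had an unadjusted p under 0.05, and DESeq2, with another filter, called 5 seed groups. The groups called by DESeq2 (18.2% of its 1304 features) were all higher in Keluoxin and none was among the 6 with the most reads. Of their seeds, 3 were those of the short reads of miR-466q-3p given above, and 2 were pure TG repeat.

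CATAACA, the seed of miR-669a-3p, miR-669o-3p and miR-669p-3p, had the most reads (708, or 17.7% of the family). Its CPM were 10.2, 11.2 and 12.9 in model (lowest, median, highest) and 4.21, 10.9 and 14.4 in Keluoxin. The model libraries lay inside the Keluoxin range (log2 fold change -0.11, edgeR adjusted p = 0.750). AAGTGCC, of miR-467a-5p, miR-467b-5p and miR-467c-5p, had 589 reads at 8.39, 10.5 and 13.4 CPM in model and 6.32, 7.84 and 10.3 in Keluoxin (log2 fold change -0.36, SE 0.18, edgeR adjusted p = 0.173). TAGTTGT, of miR-669c-5p, had 487 reads (log2 fold change -0.08, edgeR adjusted p = 0.792). TAAGTGT, of miR-467e-5p, had 173 reads (log2 fold change -0.12, edgeR adjusted p = 0.722). Another 121 reads of miR-467e-5p started 1 base later, with the seed AAGTGTG, at 2.13 ± 1.02 CPM in model and 1.26 ± 0.767 in Keluoxin (SD, n = 6), and did not pass the filter. Model and Keluoxin libraries overlapped in all of these seed groups.

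The pair of groups whose seeds are shifted by 1 base, ATACATA and TATACAT, had the lowest fold changes among the 6 with the most reads. ATACATA, read most often from miR-466d-3p and other miR-466 3p arms, had 434 reads. miR-467a-3p and miR-467d-3p each matched 49 of these reads. The levels of ATACATA were 5.98, 8.05 and 10.5 CPM in model and 2.63, 4.22 and 8.05 in Keluoxin. The groups overlapped, and the log2 fold change of -0.65 did not pass (SE 0.28, edgeR adjusted p = 0.127). TATACAT, read most often from miR-467a-3p, miR-467d-3p and the miR-297 3p arms, had 360 reads. Its levels were 3.97, 7.29 and 8.47 CPM in model and 0, 2.99 and 6.87 in Keluoxin. The log2 fold change of -0.87 (SE 0.52) did not pass (edgeR adjusted p = 0.242). The lowest library was Keluoxin replicate 5, with 0 listed reads.

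The family reads carried the repeat letters that their hairpins hold. CACACA occurred in 45.4% of family reads and in 0.714% of all other reads, and TGTGTG, its reverse complement, in 25.6% and 0.264%, each searched on the strand of the read. Of the 79 family precursors, 71 held CACACA and 74 held TGTGTG. Of the 918 other annotated precursors, 2.29% and 6.32% did. Reads started with A in 56.2% of cases, with T in 35.9%, with G in 4.29% and with C in 3.57%. Over all libraries, 79.8% of family reads were of 21 to 23 nt and 11.1% of 15 to 17 nt, beside 74.4% and 0.787% of the other annotated reads. These other annotated reads were pooled over the libraries and include reads that also match a predicted precursor, unlike the shares by group given further above. A base differed from every matching family precursor in 1416 family reads, and in 57.8% of these it was the last base alone in all matches. For the other annotated reads, judged on a single match each, the share was 75.9%, so these shares are not on the same measure. Reads that occur whole in a GENCODE transcript that is no miRNA made up 10% of the family reads. The 45 reads shared with precursors outside the family matched mainly mir-574 (20 reads) and mir-1187 (18 reads).

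Markers of other tissues moved in some Keluoxin libraries. The 3 blood markers (miR-451a-5p, miR-144-3p, miR-486a-5p, all detected) summed to 53.8 to 73.1 CPM in model and 52.1 to 718 in Keluoxin, and the liver marker miR-122-5p stood at 1.18 to 4.86 and 2.38 to 41.1 CPM. In the fit of all arms 1 of the 3 blood markers, the liver marker, 1 of the 6 retinal markers and none of the 3 muscle markers passed. Their part in the family's values was not tested. In these bulk samples, a change in the number of cells of a type and a change in RNA per cell cannot be told apart.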

How the data were processed

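Per the labels' protocols, each of the 6 model and 6 Keluoxin libraries took 1 µg of RNA and was made with a NEBNext small RNA kit and size-selected for inserts of 15 to 35 nt. The tools, per the submitters' processing notes, were cutadapt, Novoalign, Bowtie and bcl2fastq; no version is named. The build and miRBase release they aligned to: not given in the sources used here. The deposited values are whole read counts per distinct sequence, not normalized, of at least 2 reads. The other deposited columns (lengths, positions with 5 added, numbers of differing bases) have no normalization, per the file headers. The authors divided a count over the precursors a sequence matches, and the undivided number in the tag name was used here.

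The family members, gene lists and named arms were chosen with earlier results of these data known. Named were the 20 family arms with the highest mean CPM, the 6 seed groups with the most reads, and each arm or seed group past the threshold. A read was assigned to the 5p or 3p arm by the side of the precursor's middle on which it lies, and shared equally over the arms it matches. Precursors were placed by sequence on GENCODE M21 (GRCm38). Hairpins of the other names are not reported here. Of the mature sequences, the one of miR-466q comes from RefSeq (GRCm38.p6).

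The main comparison used edgeR 4.0.16 under R 4.3.3 (TMM, its filter on low counts, quasi-likelihood test, Benjamini-Hochberg over all features at 0.05). TMM factors were 0.871 to 1.30 and the biological coefficient of variation 0.481. SE were derived from the test, and where the spread was below counting noise edgeR takes p from a bound. For measures per library, exact two-sided permutation tests enumerated all assignments of the 12 libraries, and the exact sign-flip test of numbered pairs cannot go below 0.03125. DESeq2 1.42.0 and other scalings, filters, read classes and left-out libraries were alternatives. On simulated counts of these 802 arms, edgeR recovered 2.99% of arms changed 1.5-fold, 31.3% changed 2-fold and 95.5% changed 4-fold, and called 0.498% of unchanged arms. The simulation gave every arm the same biological coefficient of variation. Recovery was not split by level, so these rates need not hold for the family arms. Depth was 1933375 to 7892147 counted reads a library, and PCR reads without molecular identifiers are not independent molecules.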

Additional observations from a re-analysis of the deposited data

Results flagged for a closer look

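In 74 sets of 6 values each, the highest or lowest library was checked for a gap to the others, which chance alone gives in about 1 of 20 sets. It stood apart in 2 of them. miR-669h-5p reached 8.31 CPM in Keluoxin replicate 4, beside 1.22 in the next library of the group. Reads on the family precursors outside Sfmbt2 alone reached 21.5 RPM in Keluoxin replicate 6, beside 10.9 in the next library.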

How the results depend on the processing

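Of 441 values recomputed under alternatives, 409 kept direction and call, 16 changed direction and 16 changed otherwise; of all those that changed direction, none had passed its test. Scaling moved the whole table: over all arms, the median log2 fold change was 0.03 with TMM, 0.23 with scaling to total reads and -0.23 with upper-quartile scaling. With scaling to total reads the family total was 0.17, miR-669a-3p 0.11, miR-669o-3p 0.11 and miR-669c-5p 0.089 (log2). DESeq2 called 3 of 41 family arms (miR-466q-3p, miR-466i-3p, miR-466k-5p), beside 18.2% of all its 1287 arms, and 5 seed groups, and with no filter edgeR called 1 seed group. With exact reads only and with reads of 18 to 26 nt only 0 family arms were called, since miR-466q-3p then failed the filter. With reads of 18 to 26 nt, the differences of Keluoxin minus model were -2.66 RPM for the family, 1.81 RPM for the other precursors alone and -0.70 percentage points for reads of 21 to 23 nt, and with exact reads only 1.48 RPM for the Sfmbt2 precursors.

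Leaving out each library in turn, the family total ranged from -0.11 (without Keluoxin replicate 4) to 0.059 (without Keluoxin replicate 5), and was also above 0 (0.02) without Keluoxin replicate 2. The number of family arms called was 0 without Keluoxin replicate 3 or 4 and 1 otherwise. The log2 fold change ranged from -0.26 to 0.057 for miR-669a-3p, from -0.27 to 0.058 for miR-669o-3p and from -0.22 to 0.020 for miR-669c-5p. Shares, in percentage points, ranged from 1.04 to 1.80 for reads also outside the family (passing without Keluoxin replicate 3, adjusted p = 0.0352), from 4.77 to 8.33 for the 5p side (passing without Keluoxin replicate 3 or 4) and from -1.72 to 0.0721 for reads starting with T. The Sfmbt2 precursors ranged from -7.80 to 3.84 RPM and reads of 18 to 28 nt from -6.79 to 1.83 RPM. The cause of these changes was not tested.

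The samples share only a number: deviations of same-numbered libraries correlated at 0.0346 to 0.232, and 1 of 6 model libraries correlated best with its own number. With the number as a replicate block, the family total was -0.09, 1 family arm and 0 seed groups were called, and 4 measures no longer passed: exact reads -8.80 and reads of 21 to 23 nt -13.7 percentage points (adjusted p = 0.0781 for both), other precursors alone 8.85 RPM and reads of 15 to 17 nt 10.4 RPM (adjusted p = 0.0625 for both). Before adjustment all 4 are at 0.03125, the smallest p the sign-flip test can give. The low number of family reads, 72 in Keluoxin replicate 5, limits every value.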
